A study of Mus musculus with 12 samples.

Results

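The genes described here are 9 regulators of hepatocyte gene expression, which are the nuclear receptors Hnf4a, Nr1h4 (FXR), Nr1i3 (CAR), Nr5a2 (LRH-1) and Nr0b2 (SHP), the forkhead factors Foxa2 and Foxa3, and the basic leucine zipper factors Cebpa and Cebpb. They were chosen by name, and all 9 were found by symbol among the 57180 genes of a table of TPM values (a transcript abundance corrected for gene length and brought to 1 total per library). The table holds 12 mouse libraries in 4 groups of 3. Bulk RNA was sequenced from liver of C57 mice given carbon tetrachloride (CCl4), a solvent toxic to hepatocytes, or vehicle. Smart-seq, which amplifies whole cDNAs from little RNA, was applied to CX3CR1+ cells of dorsal skin from Cx3cr1-creER:Ai9 mice given CCl4 or vehicle. In that strain a tamoxifen-inducible Cre recombinase made from the fractalkine receptor gene switches on a red fluorescent reporter, and controls and treated mice both carried it. The design text calls the liver material hepatocytes whereas the sample labels say liver, and the sources used here state neither the dose and time nor the sex and age of the animals.

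HNF4A, the FOXA factors and the C/EBP factors bind promoters and enhancers of most genes that give a hepatocyte its identity, among them those of plasma proteins, apolipoproteins and enzymes of urea and drug metabolism. FXR is the receptor for bile acids, CAR responds to drugs and foreign chemicals, and LRH-1 binds as a monomer to genes of bile acid and cholesterol metabolism. SHP lacks a DNA-binding domain: it is induced by FXR and represses LRH-1 and HNF4A, which closes a feedback loop on bile acid synthesis.

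In CCl4 liver, 8 of the 9 genes had lower TPM than in vehicle liver at a limma adjusted p under 0.05, and Cebpb did not pass. Of all 10385 genes tested 61.4% were called, 51.1% lower and 10.3% higher. The median log2 change was -1.33 over the 9 genes and -0.59 over all genes tested. The 2 groups of liver libraries also differed in another measure. Genes encoded in mitochondrial DNA and 11 near-copy pseudogenes of such genes held 68.1 to 82.1% of the TPM in CCl4 liver, against 25.7 to 28.4% in vehicle liver. Because TPM sums to the same total in every library, a larger share of some transcripts lowers the values of all others. Each result is therefore also given as rescaled TPM, computed after those genes were left out, and as ratios between the 9 genes within a library, which no factor applied to a whole library can move. On the rescaled values, 71% of 10362 genes were called, 66.8% higher and 4.2% lower in CCl4 liver. The median log2 change was then 0.34 over the 9 genes and 0.85 over all genes tested. Of the 9 genes, Cebpb (0.95), Nr1h4 (0.48) and Nr5a2 (0.46) were called higher, the last 2 by less than the median of all genes. Nr0b2 was called lower, and 5 did not pass. The other 7 decreases seen as deposited were not called lower after this rescaling, and Nr0b2 was the 1 gene called lower under all 18 alternatives computed for it. The ranges of the 3 CCl4 and 3 vehicle livers did not overlap for 7 of the 9 genes as deposited, all lower, as for 70.2% of all genes (58.8% lower and 11.4% higher). As rescaled TPM they did not overlap for 6, of which 5 were higher and Nr0b2 lower, as for 77.6% of all genes (71.5% higher and 6.09% lower). In bulk RNA, fewer hepatocytes and less RNA of a gene per hepatocyte cannot be told apart.

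**Figure D1:**
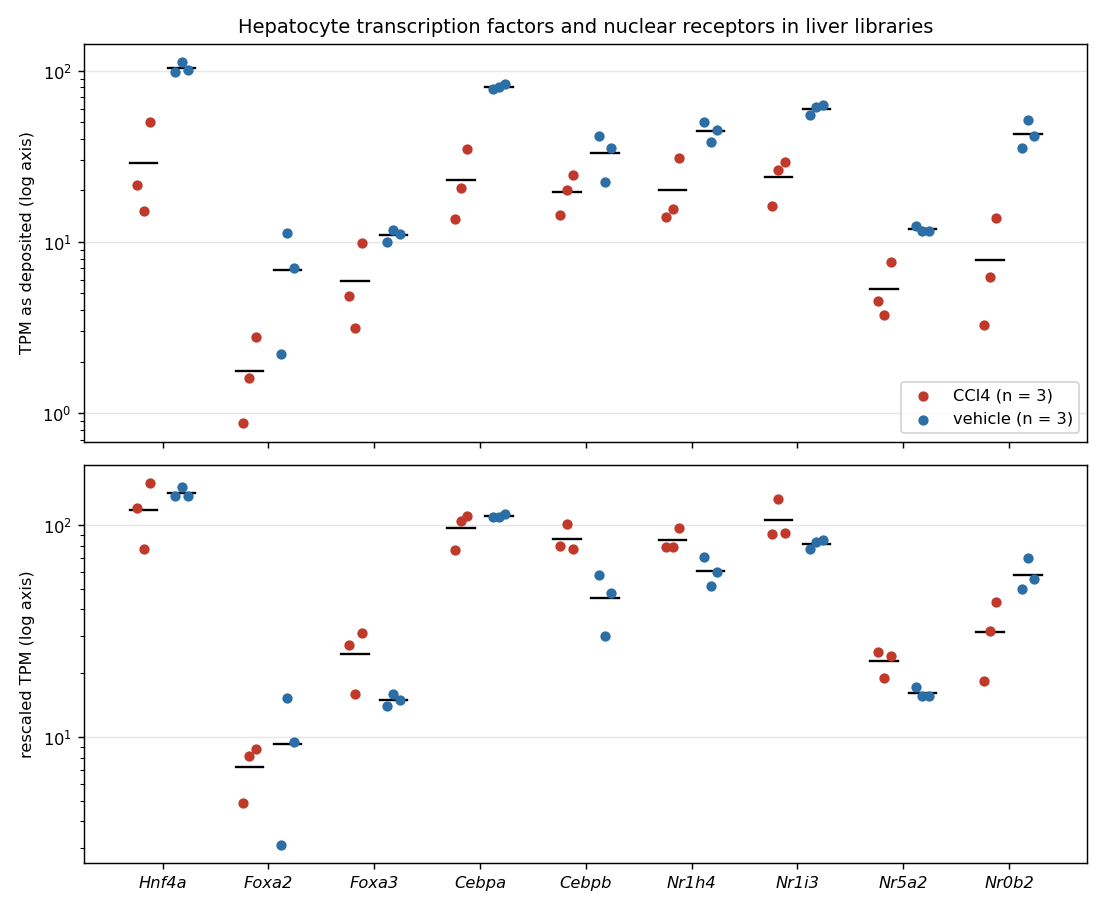
TPM of the 9 genes in the 6 liver libraries, as deposited (upper panel) and rescaled without mitochondrially encoded genes and their near copies (lower panel), on log axes. Points are libraries, CCl4 left of vehicle, and bars are means of 3. In the upper panel the CCl4 points lie below the vehicle points for 7 genes and overlap for Foxa2 and Cebpb. In the lower panel 5 genes lie higher in CCl4 liver, Nr0b2 lies lower and 3 overlap.

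The libraries themselves matched the label of liver. Alb, which encodes serum albumin, had 8884 to 21657 TPM in CCl4 liver, against 40168 to 45635 TPM in vehicle liver. All 14 hepatocyte markers measured were called lower in CCl4 liver as deposited, and the summed TPM of that list ranged from 15775 to 36413 in CCl4 liver and from 79507 to 86790 in vehicle liver. As rescaled TPM the sum was 88113 to 114180 in CCl4 liver and 111024 to 117162 in vehicle liver, and 8 of the 14 markers were called lower and 1 higher. The tested markers of other cells were higher in CCl4 liver on both scales. For macrophages and monocytes they were 12 of 12 tested (15 listed), and for neutrophils 4 of 4 (10 listed). For stellate cells and fibroblasts they were 7 of 7 (10 listed), and for liver endothelial cells 10 of 10. The whole neutrophil list summed to 0.57 to 0.87 TPM in vehicle liver. Its tested markers thus passed the filter on low values only through the CCl4 livers and could only come out higher as deposited. Of 3 cholangiocyte markers tested, Spp1 and Sox9 were higher and 1 was lower as deposited, and all 3 were higher after rescaling. Of the CCl4 livers, replicate 3 had the smallest share of mitochondrial genes and copies, the highest hepatocyte sum and the lowest macrophage sum, of 197 TPM against 465 and 656 TPM in the other CCl4 livers. Sums in vehicle liver were 32.2 to 72.8 TPM. For all 9 regulators replicate 3 also had the highest deposited TPM among the CCl4 livers. As rescaled TPM it had the highest value for 6 of the 9.

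HNF4A is the nuclear receptor without which hepatocytes lose much of their differentiated programme. Hnf4a (ENSMUSG00000017950) had 21.6, 15.2 and 50.1 TPM in the 3 CCl4 livers, against 98.4, 112 and 102 TPM in the 3 vehicle livers. The groups did not overlap, and replicate 3 of the CCl4 livers lay closest to the controls. The log2 change was -1.98 ± 0.40 (SE, limma adjusted p = 0.00164), with means of 28.9 ± 18.6 TPM in CCl4 liver and 104 ± 7.32 TPM in vehicle liver (SD, n = 3 each). As rescaled TPM, CCl4 livers had 120, 77.1 and 157, and vehicle livers had 137, 152 and 137. These values overlapped and the log2 change was -0.32 (limma adjusted p = 0.278). Without a pseudocount, 786 of 10228 genes above 0 in all liver libraries (7.68%) had a lower log2 change than Hnf4a, a rank that no factor applied to a whole library can change.

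The FOXA factors open chromatin at liver enhancers ahead of other factors. Foxa2 (ENSMUSG00000037025) had 0.87, 1.61 and 2.79 TPM in CCl4 liver, against 2.22, 11.3 and 7.05 TPM in vehicle liver. Vehicle replicate 1 lay below CCl4 replicate 3, so the groups overlapped. Its log2 change was -1.37 ± 0.42 (limma adjusted p = 0.0149). That call was lost without CCl4 replicate 1 (adjusted p = 0.118), with limma's robust option (0.0553) and with no filter on low values (0.111). As rescaled TPM the log2 change was -0.14 (adjusted p = 0.810).

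Foxa3 (ENSMUSG00000040891), which encodes another member of the family, had 4.84, 3.15 and 9.82 TPM in CCl4 liver, against 9.98, 11.8 and 11.2 TPM in vehicle liver. The highest CCl4 value lay just below the lowest vehicle value. A log2 change of -0.90 ± 0.32 was called (limma adjusted p = 0.0282). That was lost without CCl4 replicate 1 (adjusted p = 0.114), CCl4 replicate 2 (0.0973), vehicle replicate 2 (0.0665) or vehicle replicate 3 (0.0563), and with no filter on low values (0.111). Rescaled, CCl4 livers had 27.0, 15.9 and 30.8 and vehicle livers had 13.9, 15.9 and 15.0, a log2 change of 0.63 with an adjusted p of 0.0506. Replicate 2 of the CCl4 livers then lay level with the highest control. Foxa1, the other family member, had 0.680 ± 0.242 TPM in CCl4 liver and 2.18 ± 1.41 TPM in vehicle liver and did not pass the filter on low values.

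C/EBPα keeps hepatocytes quiescent and drives genes of glucose, urea and plasma protein production, and C/EBPβ is a related factor that responds to cytokines and growth signals. Cebpa (ENSMUSG00000034957) had 13.6, 20.7 and 35.1 TPM in CCl4 liver, against 77.8, 80.7 and 83.8 TPM in vehicle liver. The controls lay close together and all 3 CCl4 libraries lay far below them. Cebpa changed by -1.86 ± 0.34 on the log2 scale (limma adjusted p = 0.00111). Rescaled values were 76.1, 105 and 110 in CCl4 liver and 109, 109 and 113 in vehicle liver, a log2 change of -0.20 (adjusted p = 0.310). Replicate 1 of the CCl4 livers was then the 1 library clearly below the controls. Of the genes compared, 9.67% had a lower log2 change than Cebpa.

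Cebpb (ENSMUSG00000056501) had 14.3, 20.1 and 24.7 TPM in CCl4 liver, against 41.7, 22.3 and 35.4 TPM in vehicle liver. The groups overlapped, since CCl4 replicate 3 lay above vehicle replicate 2. A log2 change of -0.71 ± 0.32 did not pass (limma adjusted p = 0.0717), though it did without CCl4 replicate 3 (-0.88, adjusted p = 0.0292). Rescaled, CCl4 livers had 80.0, 102 and 77.3, against 58.2, 30.1 and 47.7 in vehicle liver, with no overlap. The rescaled log2 change was 0.95 ± 0.25 (adjusted p = 0.0118), close to the median of 0.85 over all genes. Cebpb stood near the middle of all genes in rank, with 51.6% of genes having a lower log2 change. Cebpb is also made by macrophages and neutrophils, whose markers were higher in CCl4 liver. The neutrophil list summed to 33.5 to 358 TPM in CCl4 liver and 0.57 to 0.87 TPM in vehicle liver, where Ly6g, Mmp8, Camp and Ngp were listed at 0. Their part in the Cebpb values was not tested.

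The promoter windows of the C/EBP pair are shown because the ratio of these genes is followed in the results. In the Cebpa window capitals mark TTGCGC at base -185, a core of C/EBP sites, which was found on either strand in 6.49% of 32851 promoter windows, and TATAAA at -30. In the Cebpb window capitals mark TGACG, a part of the cyclic AMP response element, at -180 on the reverse strand (CGTCA), -53 and -7, and TATAAA at 22. TGACG was in 20.8% and TATAAA in 13.6% of windows. The GC content was 67.3% for Cebpa and 80.7% for Cebpb, and the median window had 52.7%. Cebpa lies at chr7:35119043-35119342 and Cebpb at chr2:167688665-167688964, both on the plus strand. The sequences are from RefSeq on GRCm38.p6, a build other than the GRCm39 of the table, and cover 250 bases before to 50 after the start.
Cebpa: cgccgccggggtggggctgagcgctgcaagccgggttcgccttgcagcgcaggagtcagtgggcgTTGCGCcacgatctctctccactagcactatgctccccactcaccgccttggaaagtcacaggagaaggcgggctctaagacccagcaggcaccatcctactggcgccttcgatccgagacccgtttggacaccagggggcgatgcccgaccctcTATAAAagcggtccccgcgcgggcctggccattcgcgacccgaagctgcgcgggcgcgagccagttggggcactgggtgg
Cebpb: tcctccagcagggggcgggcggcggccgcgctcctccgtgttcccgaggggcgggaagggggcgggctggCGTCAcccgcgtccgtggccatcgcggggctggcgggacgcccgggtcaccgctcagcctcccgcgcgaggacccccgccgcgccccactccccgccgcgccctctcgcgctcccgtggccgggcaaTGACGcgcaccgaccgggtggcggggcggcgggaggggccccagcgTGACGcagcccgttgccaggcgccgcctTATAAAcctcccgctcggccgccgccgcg

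The genes of FXR, CAR and LRH-1 had log2 changes between -1.33 and -1.08. Nr1h4 (ENSMUSG00000047638), which encodes FXR, had 14.1, 15.5 and 30.8 TPM in CCl4 liver, against 50.4, 38.2 and 44.8 TPM in vehicle liver. The groups did not overlap, with a log2 change of -1.18 ± 0.33 (limma adjusted p = 0.00960) that lost its call without CCl4 replicate 1 (adjusted p = 0.0504). Rescaled values were 78.5, 78.7 and 96.7 in CCl4 liver and 70.4, 51.5 and 60.3 in vehicle liver. On that scale every CCl4 library lay above every control, and the log2 change was 0.48 (limma adjusted p = 0.0348). That was below the median of 0.85 over all genes. By rank, 28.7% of genes had a lower log2 change than Nr1h4.

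Nr1i3 (ENSMUSG00000005677), which encodes CAR, had 16.2, 26.2 and 29.2 TPM in CCl4 liver, against 55.4, 61.3 and 62.9 TPM in vehicle liver. The groups lay far apart, with a log2 change of -1.33 ± 0.30 (limma adjusted p = 0.00316). Rescaled values were 90.5, 133 and 91.7 in CCl4 liver and 77.3, 82.7 and 84.6 in vehicle liver, a log2 change of 0.34 (adjusted p = 0.123). Nr5a2 (ENSMUSG00000026398), which encodes LRH-1, had 4.52, 3.73 and 7.67 TPM in CCl4 liver, against 12.4, 11.6 and 11.6 TPM in vehicle liver. Its controls lay close together, and the log2 change was -1.08 ± 0.26 (limma adjusted p = 0.00446). Rescaled values were 25.2, 18.9 and 24.1 in CCl4 liver and 17.3, 15.7 and 15.5 in vehicle liver, again with no overlap. The log2 change was then 0.46 (limma adjusted p = 0.0359), also below the median of 0.85 over all genes. By rank, 28.6% of genes had a lower log2 change than Nr5a2.

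Nr0b2 (ENSMUSG00000037583), which encodes SHP, showed the lowest log2 change of the 9. It had 3.29, 6.24 and 13.9 TPM in CCl4 liver, against 35.6, 51.7 and 41.4 TPM in vehicle liver. The highest CCl4 value was well under the lowest control. The log2 change was -2.49 ± 0.40 (limma adjusted p = 0.000534), with means of 7.80 ± 5.46 TPM in CCl4 liver and 42.9 ± 8.13 TPM in vehicle liver (SD, n = 3 each). Rescaled values were 18.4, 31.6 and 43.5 in CCl4 liver and 49.7, 69.7 and 55.7 in vehicle liver, which did not overlap, and the log2 change was -0.95 (adjusted p = 0.0252). Over the 18 alternatives it ran between -2.96 and -0.95, each called lower. Of 10228 genes, 217 (2.12%) had a lower log2 change. Its promoter window is shown because it holds 2 copies of TCAAGG, the core bound by LRH-1, the activator that SHP represses, at bases -68 and -35, beside TATAAA at -28 (capitals). TCAAGG was in 14.4% of all windows. The window lies at chr4:133553126-133553425, plus strand of GRCm38.p6 (RefSeq).
Nr0b2: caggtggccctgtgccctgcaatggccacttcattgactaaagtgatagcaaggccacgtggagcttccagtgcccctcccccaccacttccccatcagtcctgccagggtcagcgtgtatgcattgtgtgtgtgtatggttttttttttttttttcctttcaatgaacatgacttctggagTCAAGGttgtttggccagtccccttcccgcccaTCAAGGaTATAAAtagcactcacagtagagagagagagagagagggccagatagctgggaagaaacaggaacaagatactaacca

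In vehicle liver the order of levels was Hnf4a, Cebpa and Nr1i3 (59.8 ± 3.95 TPM), each above the next in all 3 libraries with no overlap. Nr1h4 (44.5 ± 6.14 TPM), Nr0b2 and Cebpb followed with overlapping ranges, then Nr5a2 (11.8 ± 0.463 TPM), Foxa3 (10.99 ± 0.929 TPM) and Foxa2 (6.85 ± 4.53 TPM), also overlapping from each to the next. In CCl4 liver the upper 5 genes were Hnf4a, Nr1i3 (23.9 ± 6.82 TPM), Cebpa (23.1 ± 10.9 TPM), Nr1h4 (20.1 ± 9.28 TPM) and Cebpb (19.7 ± 5.18 TPM), and each neighbour overlapped the next. Nr0b2 followed, below Cebpb without overlap, near Foxa3 (5.94 ± 3.47 TPM) and Nr5a2 (5.31 ± 2.08 TPM), and Foxa2 was lowest (1.76 ± 0.968 TPM). Hnf4a and Cebpa, well above Cebpb in vehicle liver, thus overlapped it in CCl4 liver. The coefficient of variation was larger in CCl4 than in vehicle liver for 7 of the 9 genes, the exceptions being Foxa2 and Cebpb. It reached 70.0% in CCl4 liver against 18.96% in vehicle liver for Nr0b2. As rescaled TPM it was larger in CCl4 liver for 6 genes, with Nr1h4 a further exception, and that of Nr0b2 was 40.3% in CCl4 liver and 17.6% in vehicle liver.

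**Figure D2:**
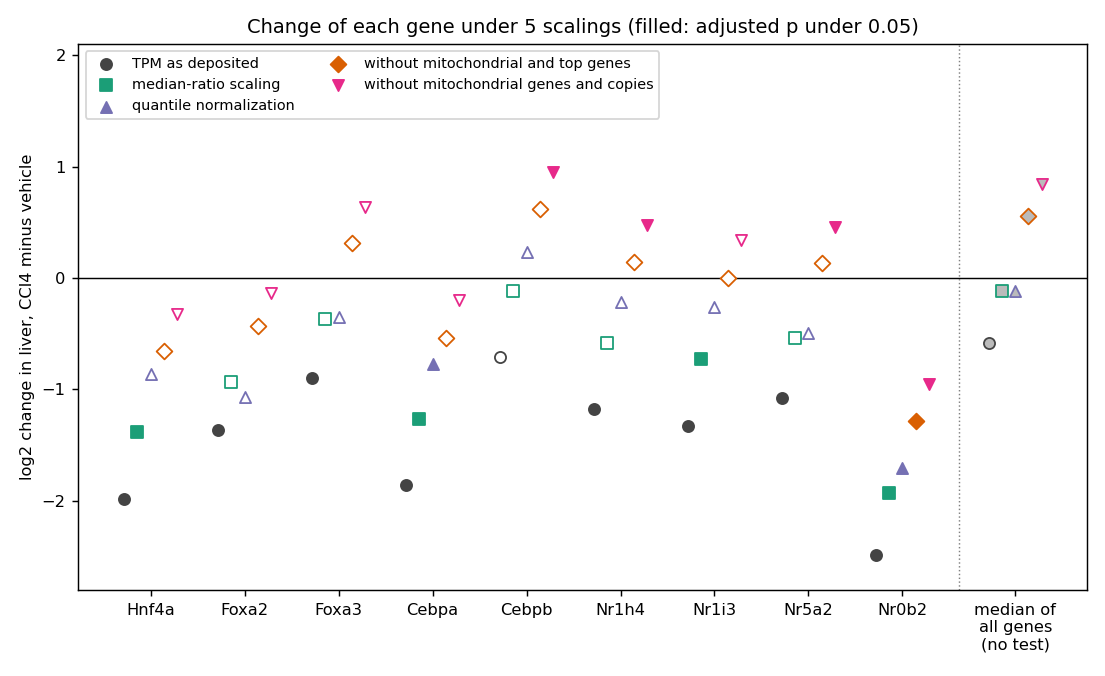
Log2 change in liver (CCl4 minus vehicle) of each gene under 5 scalings of the same table. Filled symbols passed a limma adjusted p under 0.05, open ones did not, and the grey symbols at the right are medians over all genes tested. Nr0b2 is below 0 and filled under all 5, whereas Cebpb runs between -0.71 and 0.95.

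Scalings between these extremes gave intermediate values, as the plot of 5 scalings shows. Under median-ratio scaling the median of all genes was -0.11, 43.9% of genes were called, 26.2% lower and 17.7% higher, and 4 of the 9 were called lower, namely Hnf4a, Cebpa, Nr0b2 and Nr1i3. Under quantile normalization 41.7% of genes were called, 24.1% lower and 17.6% higher, and Cebpa and Nr0b2 were called lower. With mitochondrial genes and the 10 most abundant genes left out, 57.5% of genes were called, 49.6% higher and 7.95% lower, and Nr0b2 alone of the 9 was called. In 1 limma fit over all 12 libraries, which shares the spread with the skin libraries, Cebpa (adjusted p = 0.0774), Nr1h4 (0.107) and Foxa3 (0.120) were not called. Under all 5 scalings Nr0b2 had the lowest and Cebpb the highest log2 change of the 9.

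Ratios within a library compare the genes with each other free of any scaling factor. Of the 36 ratios between 2 of the genes, 16 did not overlap between CCl4 and vehicle liver and 20 did, while 61.6% of all pairs of liver genes did not overlap. With 3 libraries against 3 the smallest two-sided exact permutation p is 0.1, so no ratio can reach 0.05. The log2 ratio of Cebpa to Cebpb was 0.16 ± 0.31 in CCl4 liver and 1.33 ± 0.48 in vehicle liver (SD, n = 3 each). Cebpa was thus more abundant than Cebpb in every vehicle liver, and in CCl4 replicates 1 and 2 the pair was close to equal. The log2 ratio of Hnf4a to Cebpb was 0.40 ± 0.73 in CCl4 liver and 1.70 ± 0.57 in vehicle liver, a difference of -1.29 with no overlap.

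Nr0b2 was also lower relative to Nr1h4 and Nr5a2 of the bile acid loop, and to Nr1i3. The log2 ratio of Nr1h4 to Nr0b2 was 1.52 ± 0.50 in CCl4 liver and 0.06 ± 0.47 in vehicle liver, a difference of 1.46. The ratio of Nr5a2 to Nr0b2 also differed by 1.46, and that of Nr1i3 to Nr0b2 by 1.32, all without overlap. Nr0b2 was lower against 6 of the 8 other genes, where 61.6% of all pairs of liver genes did not overlap. Its ratios to Hnf4a and Foxa2 overlapped. By contrast Nr1h4 and Nr5a2 kept nearly the same ratio, with a log2 of 1.90 ± 0.23 in CCl4 liver and 1.90 ± 0.16 in vehicle liver. Hnf4a and Cebpa also overlapped, with a difference of -0.12. Hnf4a was lower against Foxa3, at a log2 ratio of 2.26 ± 0.10 in CCl4 liver and 3.25 ± 0.06 in vehicle liver. Every ratio with Foxa2 overlapped.

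**Figure D3:**
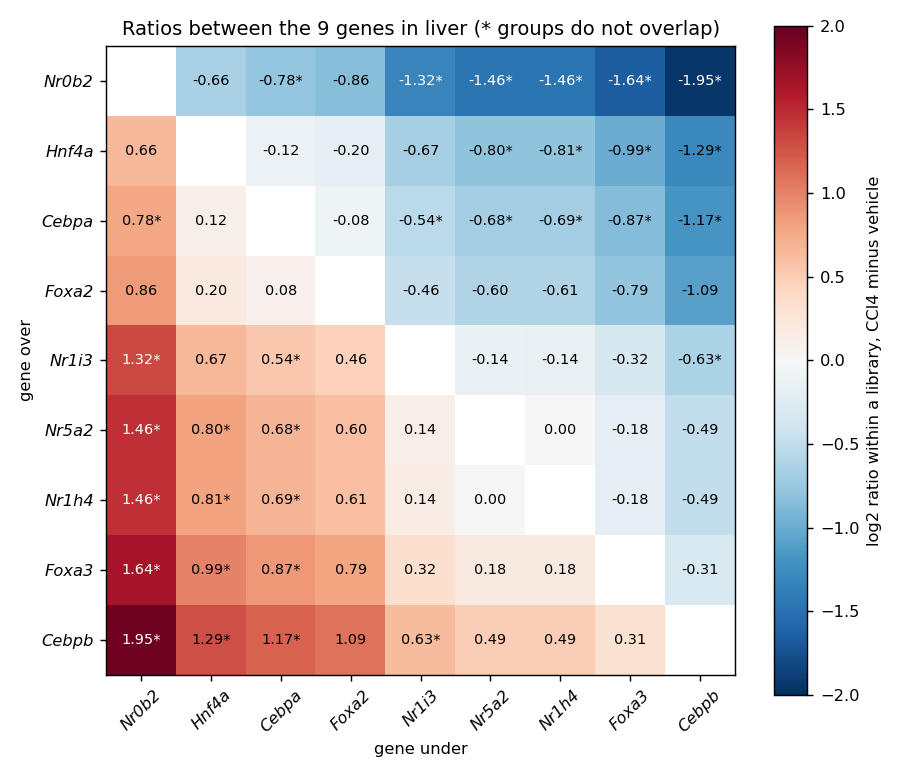
Difference between CCl4 and vehicle liver in the mean log2 ratio of the row gene to the column gene within a library, with genes in the order of their change. Asterisks mark ratios whose 3 CCl4 and 3 vehicle values do not overlap. Nr0b2 was lower against 6 of the 8 others (top row) and Cebpb was higher against 4 (bottom row). Of all pairs of liver genes 61.6% did not overlap.

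Other regulators and known targets of these genes were read from lists chosen by name. Of 26 other transcription factors listed for hepatocytes 24 were tested. As deposited 12 were lower, 1 was higher and 11 did not pass. That share of lower genes was close to the 51.1% over all genes. Klf15, a regulator of amino acid and glucose metabolism, had 10.1 ± 4.08 TPM in CCl4 liver and 46.7 ± 3.51 TPM in vehicle liver, and was the 1 list member lower on both scales. Gata4 was higher on both. Not every gene of the list is particular to hepatocytes, and which cells held these transcripts was not tested. Tef and Cebpe were lower as deposited (log2 changes of -1.70 and -1.18) and did not pass after rescaling, and neither did Creb3l3 (-1.999 as deposited). Of 43 other nuclear receptors 25 were tested, of which 21 were lower and 1, Rarg, was higher. Rxra, the common partner of FXR and CAR, had 13.96 ± 5.64 TPM in CCl4 liver and 48.8 ± 5.56 TPM in vehicle liver, a log2 change of -1.80 that became -0.16 and did not pass after rescaling. The clock receptor Nr1d1 (-1.64) and the orphan receptor Nr2c1 (-1.01) likewise lost the call. Rescaled, 9 of the 25 receptors were higher and 0 lower, where 66.8% of all genes were higher and 4.2% lower. Of 17 coregulators tested 6 were lower as deposited, among them Ppargc1a (-0.72), Ncoa4 (-1.06), Ncoa2 (-0.60) and Carm1 (-0.61). After rescaling, with 66.8% of all genes higher, 15 of the 17 were higher and Ppargc1a was 1 of the 2 that did not pass.

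Partners and antagonists of the C/EBP factors included genes that were higher on the deposited scale, where the median of all genes was below 0. Of 10 tested, Ddit3, Id1 and Trib3 were higher, 1 was lower and 6 did not pass. Of all genes 10.3% were higher and 51.1% lower. After rescaling 8 of the 10 were higher, where 66.8% of all genes were higher. Ddit3, the stress-induced C/EBP relative CHOP that dimerizes with other C/EBP proteins, had 33.6 ± 6.88 TPM in CCl4 liver and 6.10 ± 1.38 TPM in vehicle liver. Its log2 change was 2.28 ± 0.27 (limma adjusted p = 0.000109). Id1 had 12.6 ± 2.01 TPM in CCl4 liver and 2.63 ± 1.14 TPM in vehicle liver. Trib3, of a family whose members act on C/EBPα stability, changed by 0.67 as deposited and 2.25 rescaled. Cebpzos, the 1 gene lower as deposited (-1.43), was at -0.04 after rescaling. Whether it acts on C/EBP factors was not tested. The first 3 were called higher under all 5 scalings, each of which called between 10.3 and 66.8% of all genes higher.

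Target genes of HNF4A and C/EBPα were lower as deposited in 21 of 22 and 13 of 14 cases, against 51.1% of all genes. Their median log2 changes were -1.97 and -2.31, against -0.59 over all genes and -1.98 and -1.86 for Hnf4a and Cebpa themselves. Rescaled, 7 of the 22 were lower and 3 higher, and 9 of the 14 were lower and 2 higher. Of all genes 4.2% were then lower and 66.8% higher. Cyp8b1, the sterol 12-hydroxylase of bile acid synthesis, had 10.3 ± 4.57 TPM in CCl4 liver and 173 ± 6.96 TPM in vehicle liver, a log2 change of -4.05 as deposited and -2.47 rescaled. Tdo2, which degrades tryptophan, had 84.4 ± 58.1 TPM in CCl4 liver and 737 ± 76.7 TPM in vehicle liver, with log2 changes of -3.32 and -1.63. Apoa1 and Ces3a fell by 0.70 and 0.60 after rescaling, and Cyp2d22, Serpina1a and Ugt1a1 by 0.41, 0.69 and 0.63, while Apoa2 did not pass (-0.36). Many of these genes also serve as hepatocyte markers, and the hepatocyte marker sum differed between the groups as given above.

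As deposited 51.1% of all genes were lower, and after rescaling 66.8% were higher and 4.2% lower, and the counts of the next 3 lists are to be read against these shares. The list of 14 FXR targets tested held 10 lower and 4 that did not pass as deposited. Rescaled, 7 were higher and 3 lower, the lower ones being Nr0b2 and the bile acid conjugating enzymes Slc27a5 (-0.79) and Baat (-0.77). Fetub was lower as deposited (-1.80) and did not pass after rescaling. Of 11 LRH-1 and SHP targets 10 were lower as deposited, and 5 were lower and 3 higher after rescaling. The lower ones included Cyp8b1, the sterol transporter Abcg8, the bile acid uptake transporter Slc10a1 and Nr0b2 itself. Slc10a1 had 72.5 ± 39.5 TPM in CCl4 liver and 402 ± 18.5 TPM in vehicle liver. Of 14 CAR targets 10 were lower and 1, Gstm3, higher as deposited. The drug-metabolizing enzymes Cyp2c54, Cyp2c37 and Cyp2c50 were lower on both scales, with rescaled log2 changes of -1.99, -2.65 and -1.30. Cyp2b10, the best known CAR target of mouse liver, was among the 4 called higher after rescaling.

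Of 20 acute phase genes, which C/EBPβ helps to induce, 14 were lower and 2 higher as deposited, where 51.1% of all genes were lower and 10.3% higher. Il1rn, the interleukin 1 receptor antagonist, was higher, at 9.74 ± 3.13 TPM in CCl4 liver and 1.06 ± 0.191 TPM in vehicle liver (log2 change 2.34). Rescaled, 9 were higher, 1 was lower and 10 did not pass, where 66.8% of all genes were higher and 4.2% lower. Lbp was the lower one (-0.61), whereas Hp (-0.33) and Fgg (-0.40) did not pass. Il1rn is also expressed by macrophages and neutrophils, and the part of the higher marker sums of these cells in its values was not tested.

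**Figure D4:**
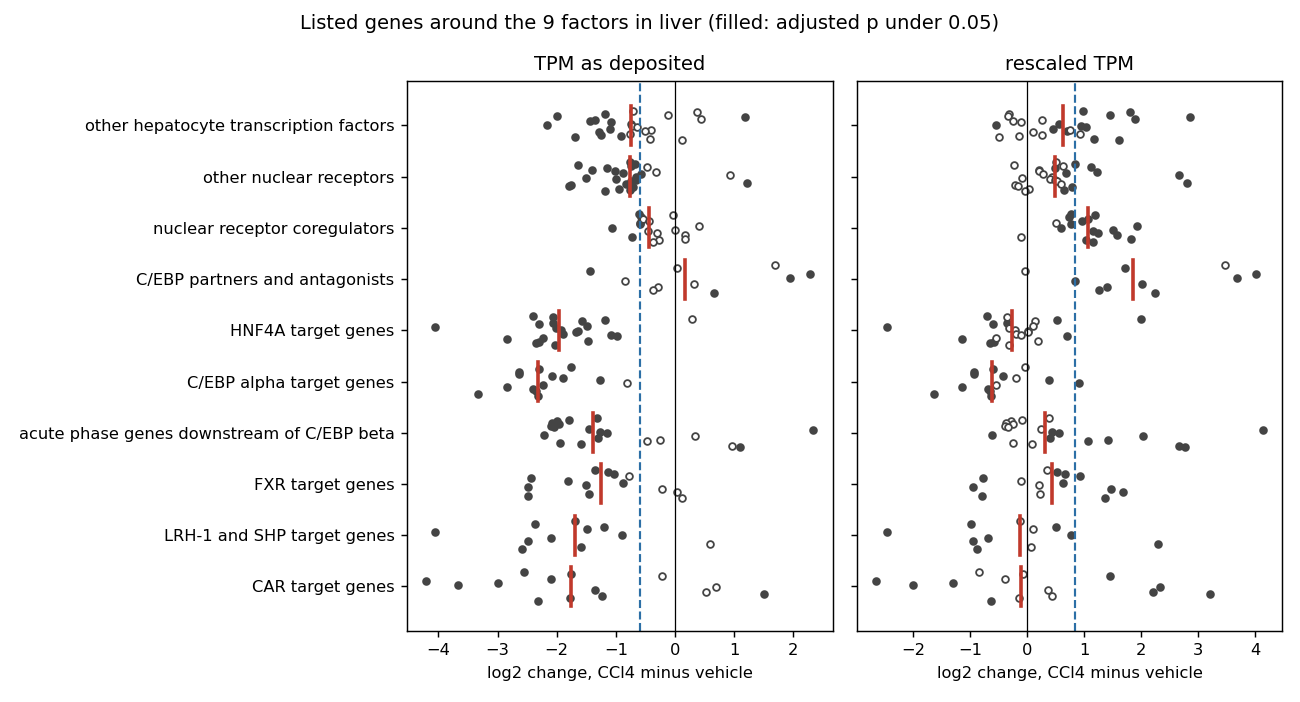
Log2 change in liver (CCl4 minus vehicle) of the tested members of 10 gene lists, as deposited (left) and as rescaled TPM (right). Filled points passed a limma adjusted p under 0.05, red bars are list medians and the dashed line is the median of all genes. C/EBP alpha targets have a median of -2.31 on the left and -0.61 on the right, where the median of all genes is 0.85.

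For each gene the 3 liver genes with the most similar profile were found by the root mean square difference of log2(TPM + 1), centred on the vehicle mean, over the 6 liver libraries. For Hnf4a these were Aldh4a1 (0.0556), Pygl (0.0617) and Adhfe1 (0.0626) of 5003 genes compared, and for Cebpa Vkorc1 (0.0487), Spp2 and Pemt. Nr5a2 was closest to Asnsd1, Kat2b and Cdh2 (0.0377 to 0.0440), Nr1i3 to Rilp, Mrps36 and Slc17a3, and Nr1h4 to Tk1, Ormdl3 and Dapk1. Foxa3 was closest to Nags, Vcp and Mrpl50, and Cebpb to Irf2bp2 (0.0816), Pim1 and Wbp11. Nr0b2 had no profile as near: its closest were Ppp1r3b (0.186), Oaf and Nsdhl. Those of Foxa2, Zdhhc16 (0.205), Fam214a and Phlda1, were also more distant. The larger share of mitochondrial genes and copies in the 3 CCl4 livers enters all of these profiles.

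In CX3CR1+ cells of dorsal skin, 2 of the 9 genes passed the filter on low values, Cebpa and Cebpb. No gene was called by limma among the 13767 tested (0%), and 288 had an unadjusted p under 0.05. In 1 limma fit over all 12 libraries 1 gene was called. Cebpb, which macrophages use in their differentiation and inflammatory response, was highly abundant in skin. It had 523, 680 and 576 TPM in CCl4 skin, against 322, 245 and 456 TPM in vehicle skin. Every CCl4 library lay above every vehicle library, as for 2.56% of genes tested, with 2.72% lower and 5.28% in either direction, and the log2 change was 0.84 ± 0.50 (limma adjusted p = 1.00). The difference did not pass, and over the 6 fits leaving out 1 library it ran from 0.62 to 1.07.

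Cebpa had 13.8, 1.21 and 3.19 TPM in CCl4 skin, against 10.2, 8.08 and 1.94 TPM in vehicle skin. The groups overlapped and 1 library of each was far from the others, with a log2 change of -0.38 ± 0.88 (limma adjusted p = 1.00). Without CCl4 replicate 2 the change was 0.23. Replicate 3 of CCl4 skin stood apart in cell markers: its macrophage and monocyte list summed to 324 TPM, where the other CCl4 skin samples had 8275 and 10475 TPM and vehicle skin 10217 to 25693 TPM. Its neutrophil list summed to 595 TPM, where the other CCl4 skin samples had 23.2 and 52.7 TPM and vehicle skin 43.45 to 95.23 TPM. Without replicate 3 of CCl4 skin the Cebpb change was 0.85 and that of Cebpa -0.23. The Langerhans and dendritic cell list summed to 299.5 to 11191 TPM in CCl4 skin and 15413 to 18889 TPM in vehicle skin. Keratinocyte markers summed to 1468 to 3912 TPM in CCl4 skin and 1548 to 3414 TPM in vehicle skin. Stellate cell and fibroblast markers summed to 416 to 4589 TPM in CCl4 skin and 1646 to 6915 TPM in vehicle skin. Those of T and natural killer cells had 1261 to 3285 TPM in CCl4 skin and 1069 to 7555 TPM in vehicle skin. The part of any of these cells in the Cebpb values was not tested. Cx3cr1 itself, the gene by which the cells were marked, had 5.28, 0 and 0.28 TPM in CCl4 skin and 3.91, 0.27 and 0.91 TPM in vehicle skin.

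The other 7 genes were at or near 0 in skin. Nr0b2 was listed at 0 in all 6 skin libraries. Hnf4a reached 1.55 TPM and Nr1h4 2.12 TPM in vehicle replicate 2, the library that also had the highest sum of hepatocyte markers (128 TPM, against 22.8 to 56.6 TPM in the other 5). Elsewhere in skin neither exceeded 0.09 TPM. Foxa3 had at most 0.36 TPM in CCl4 skin and 0.87 TPM in vehicle skin, and Foxa2, Nr1i3 and Nr5a2 had at most 0.14 TPM in either group. Levels in liver and skin come from different assays and strains and are given side by side without a test.

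**Figure D5:**
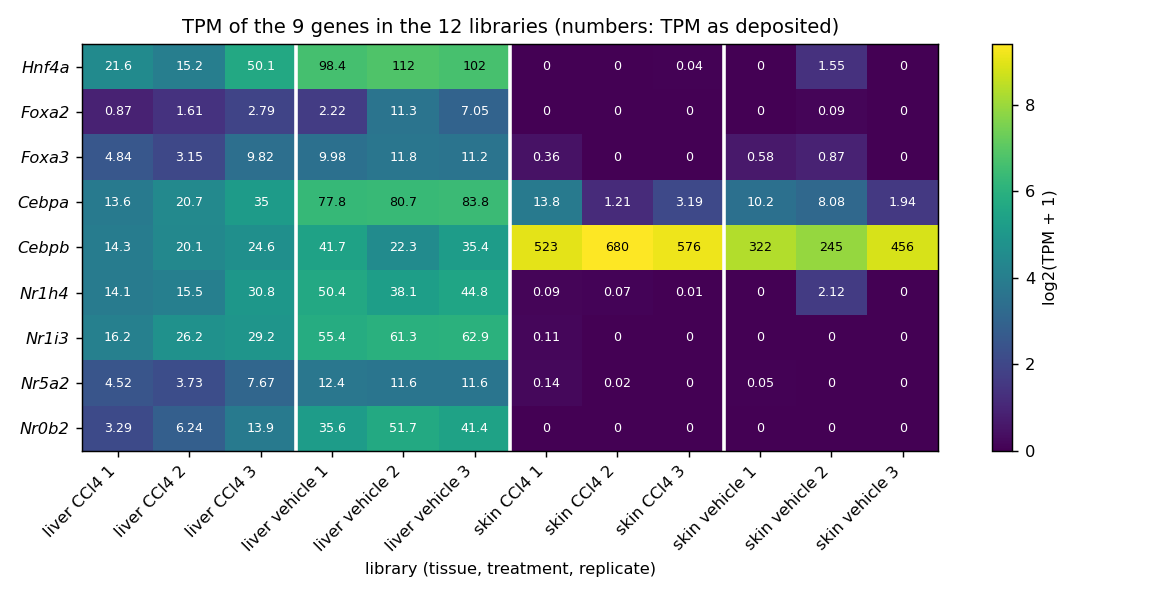
TPM as deposited of the 9 genes in each of the 12 libraries, coloured by log2(TPM + 1), with CCl4 left of vehicle in each tissue. Cebpb is the 1 gene higher in every skin library (245 to 680 TPM) than in every liver library (14.3 to 41.7 TPM), and 7 genes are at or near 0 in skin.

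The effect of CCl4 in liver was set against that in skin in 1 limma model of all 12 libraries, over the 9255 genes that both tissues' filters kept. The difference of the log2 changes, liver minus skin, was -1.55 ± 0.52 for Cebpb (limma adjusted p = 0.149) and -1.48 ± 0.95 for Cebpa (adjusted p = 0.392). Neither passed. Of all genes 0.216% did, 0.151% with a higher and 0.0648% with a lower change in liver. On rescaled TPM the differences were 0.13 for Cebpb and 0.19 for Cebpa, so that their sign depended on the scaling.

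Overlapping genes on the opposite strand could share reads with 4 of the 9 where counting ignores strand, which the sources used here do not state. They were Hnf4aos (0.09 to 4.1 TPM over the liver libraries), Gm45091 at Cebpa (0 to 3.18 TPM), Tmem189 at Cebpb (1.82 to 3.62 TPM) and Tomm40l at Nr1i3 (2.26 to 4.68 TPM).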

How the data were processed

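Liver was profiled by bulk RNA-seq and skin cells by smart-seq, with 3 libraries in each of 4 groups. The authors deposited 1 table of TPM, for which the submitters' processing notes name the tools fastp, HISAT2, StringTie and RSEM and the build GRCm39, with no versions or roles. TPM holds no depth, so no counting interval can be given. Values of 0 can be failed estimates. The design text speaks of biological replicates without naming animals.

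Log2(TPM + 1) was fitted with limma 3.58.1 in R 4.3.3 (lmFit, eBayes with trend, two-sided), liver and skin apart, over genes that reached a TPM of 1 in 3 or more of the 6 libraries. Benjamini-Hochberg adjustment ran over all genes tested, with a threshold of 0.05. The log2(TPM + 1) scale understates changes of low genes. Rescaled TPM left out 37 mitochondrially encoded genes and 11 pseudogenes matching their GENCODE M21 transcripts at 95% identity or more over at least 0.95 of their length. Ratios, ranks and motif searches used Python 3.11.15 with pandas 2.3.3 and scipy 1.17.1. The fits were tested on simulated data.

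The 9 genes and all gene lists were chosen with earlier results of these data known, so list counts are descriptions. Named list genes are the up to 4 of lowest p per list in liver, some of which are not reported here; Gata4, Rarg, Gstm3, Cyp2b10, Foxa1, Spp1, Sox9 and the genes listed by direction were added after their values were seen. Motifs and promoter windows were chosen after looking at the windows. Of 282 listed symbols 1 had no match. Alternatives were other pseudocounts (0.1 and 5), filters, scalings, robust eBayes, 1 joint fit of both tissues, a required log2 change above 1, a block for the replicate number, and fits without each library in turn.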

Additional observations from a re-analysis of the deposited data

How the results depend on the processing

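Depth is unknown, and with 3 libraries a group the spread of each gene is poorly measured, so calls near the threshold are unstable. Liver calls also depend on the scaling and on other settings. As deposited 6377 of 10385 genes tested were called in liver. With a filter at a TPM of 5 fewer genes were tested, and 4084 of 5702 were called. Of 10385 genes, 1736 were called in 1 fit over all 12 libraries and 3707 with a minimum log2 change of 1. As deposited 8 of the 9 regulators were called, all lower, with 61.4% of all genes. Under median-ratio scaling 4 were called (43.9% of all genes) and under quantile normalization 2 (41.7%). With mitochondrial and the 10 top genes left out 1 was called (57.5%), and all of these were lower. With mitochondrial genes and copies left out 4 were called, 3 higher and 1 lower, with 71% of all genes. In 1 fit over 12 libraries 5 were called, all lower, with 1736 of 10385 genes. When 1 library was left out, the regulators called ranged from 5 to 9. They were 5 without CCl4 replicate 1, with 4947 genes called, and 9 without CCl4 replicate 3, with 7607 genes called.

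Signs turned under quantile normalization for Cebpb (0.24). With mitochondrial and top genes left out they turned for Foxa3 (0.31), Cebpb (0.62), Nr1h4 (0.14), Nr1i3 (0.00396) and Nr5a2 (0.14). With mitochondrial genes and copies left out they turned for Foxa3 (0.63), Cebpb (0.95), Nr1h4 (0.48), Nr1i3 (0.34) and Nr5a2 (0.46), and for the liver minus skin difference of Cebpa (0.19) and Cebpb (0.13). In skin, the Cebpa change ran from -1.14 to 0.23 when 1 library was left out.

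In skin 0 genes were called and 1 in 1 fit over 12 libraries. The 20 genes whose effect differed between tissues became 176 with a pseudocount of 0.1, 41 without a filter, 11 with a filter at 5, 206 under median-ratio scaling, 150 under quantile normalization, 486 with mitochondrial and top genes left out, 548 with mitochondrial genes and copies left out, and 4 to 419 when 1 library was left out. The causes were not tested. The 16 ratios that did not overlap were 14 under quantile normalization, which is not a single factor per library. They were 16 to 24 when 1 library was left out. With 1 library fewer, groups fail to overlap more easily, and no share over all pairs was computed for that case.

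Deviations of same-numbered libraries from their group means correlated at -0.0381, 0.0796 and 0.0683 in liver and 0.587, 0.0923 and 0.35 in skin. Not every library correlated best with its own number. With 3 libraries a group, these values cannot settle whether replicate numbers pair the samples. Some library names also carried numbers other than those of the replicates. A replicate block gave 6493 genes and 8 regulators in liver, 0 genes in skin and 345 for the difference between tissues.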
